A study of Mus musculus with 12 samples.

Results

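The 8 genes described here, Prdm1, Xbp1, Ell2, Sdc1, Jchain, Mzb1, Txndc5 and Creld2, belong to the programme by which an activated B cell becomes a plasmablast, the dividing, antibody-secreting precursor of the plasma cell. They were chosen by name, as rows of the deposited table of mRNA abundance, which lists 29486 genes. All 8 were found, with J chain (older name Igj) listed as Jchain, and all 8 passed a filter on low values that 15575 genes passed.

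Lipopolysaccharide (LPS) is a bacterial product that drives mouse B cells to divide and, in part of the culture, to differentiate. Prdm1 encodes Blimp-1, a transcriptional repressor that shuts down the B cell programme, and Xbp1 encodes a transcription factor that enlarges the secretory apparatus. Ell2 encodes a transcription elongation factor that favours the secreted form of immunoglobulin heavy chain mRNA, and Sdc1 encodes syndecan 1 (CD138), the surface proteoglycan used to recognise plasma cells. Jchain encodes the joining chain of polymeric IgM and IgA, while Mzb1, Txndc5 and Creld2 encode proteins of the endoplasmic reticulum (ER), where antibody is folded and assembled.

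Polyadenylated RNA was sequenced from splenic B cells of C57BL/6Babr mice, purified with an isolation kit, in 3 conditions of 4 libraries each. All cells received LPS (10 μg/ml). The LPS group is labelled with 48 h of LPS alone, the LE group with 48 h of LPS and then 4 h of etoposide (20 μM), a topoisomerase II poison that breaks DNA, and the LEKU group with 47 h of LPS, 1 h of KU55933 (10 μM), an inhibitor of the DNA damage kinase ATM, and 4 h of etoposide. It is not stated whether the cells of the LPS group were harvested at 48 h or kept for the 4 h that the others spent with etoposide, and no group received KU55933 without etoposide, so that an effect of the inhibitor on undamaged cells cannot be told apart from its effect on the damage response. The methods give 4 biological replicates, and which mice or pools they came from is not stated.

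The deposited columns do not hold 4 separate measurements per condition. Within each condition any 2 columns had the same ratio for every gene, to within 1.42e-14 in log2 units. They therefore hold a mean fitted per condition, rescaled to the depth of each library. No spread between replicates can be computed from such values, and no test was made: every difference below is a ratio of 2 fitted means without an error, and a difference of at least 2-fold is counted only as a size. Column totals, which stand for depth, were in units of 1000000 counts 20.7 to 23.9 in LPS, 22.5 to 30.6 in LE and 20.4 to 25.1 in LEKU. Columns were divided by size factors of 0.791 to 0.912, 0.999 to 1.36 and 0.914 to 1.12, which leaves 1 value per gene and condition, called the scaled count here.

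The cultures carried the transcripts of B cells in all conditions. The 4 B cell markers Cd79a, Cd79b, Ms4a1 and Cd74 summed to 159003 scaled counts in LPS, 113886 in LE and 111023 in LEKU. All 4 were lower in LE than in LPS, beside 57.1% of all genes. In bulk RNA, fewer cells of a type and less RNA per cell cannot be told apart. The 6 macrophage markers, which all passed the filter, summed to 432, 455 and 428, and the 4 neutrophil markers, of which 1 passed, to 2.24, 14.6 and 4.38. Of the 4 T cell markers, which summed to 1143, 403 and 556, only Cd2, which mouse B cells also express, passed the filter. The 4 red blood cell markers, of which 2 passed, summed to 73.1, 88.7 and 45.6. Plasmacytoid dendritic cells also transcribe several of the 8 genes, and their 5 markers, of which 3 passed, summed to 380, 288 and 430. Of these, Ccr9 had 108, 86.2 and 101 scaled counts, Cox6a2 142, 71.6 and 159, and Pacsin1 129, 128 and 168, while the defining marker Siglech stayed below 1 and Klk1 had at most 1.70. The part of any of these markers in the results was not tested.

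Sdc1 was the gene of the 8 that differed most between conditions. It is the best known surface marker of plasmablasts and plasma cells, and it also occurs on epithelia. Sdc1 (ENSMUSG00000020592) lies on chromosome 12 of GRCm38 from 8771323 to 8793715, on the plus strand. Its 4 columns in LPS were 113, 126, 131 and 118 as deposited, those in LE 1899, 2128, 2578 and 2063, and those in LEKU 577, 651, 698 and 709. The LE columns were the highest and the LPS columns the lowest, and the differences within a condition are depth alone. After scaling, Sdc1 had 143 counts in LPS, 1901 in LE and 632 in LEKU. LE was 13.3-fold above LPS (log2 ratio 3.72), LEKU was 3.01-fold below LE (log2 ratio −1.59) and still 4.41-fold above LPS (log2 ratio 2.13). Among the 10869 genes with a mean scaled count of at least 100, 72 had a higher log2 ratio than Sdc1 in LE against LPS and 39 a lower one in LEKU against LE. These 2 comparisons share the LE libraries.

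Epithelial and stromal markers, measured beside Sdc1 because epithelia carry it, summed over 6 genes, of which 3 passed, to 51.2 scaled counts in LPS, 87.5 in LE and 74.1 in LEKU. Of the 6, 5 were higher in LE than in LPS, beside 42.9% of all genes. Krt8 and Cdh1, among these 5, did not pass the filter. Epcam, a surface molecule of epithelia, had 34.3, 64.2 and 55.4 scaled counts, the same order of conditions as Sdc1, while Krt18 had 7.92, 10.6 and 8.26 and Col1a1 had 7.37, 10.9 and 8.63. Krt8 and Col1a2 stayed below 1 in all conditions and Cdh1 had at most 1.21. The part of these markers in the Sdc1 values was not tested. Brought to the authors' scale, the mean fitted value of Sdc1 over the 3 conditions differed from the authors' mean of normalized counts by −2.06%, where the other 7 genes differed by −0.231% to 0.0473%.

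**Figure D1:**
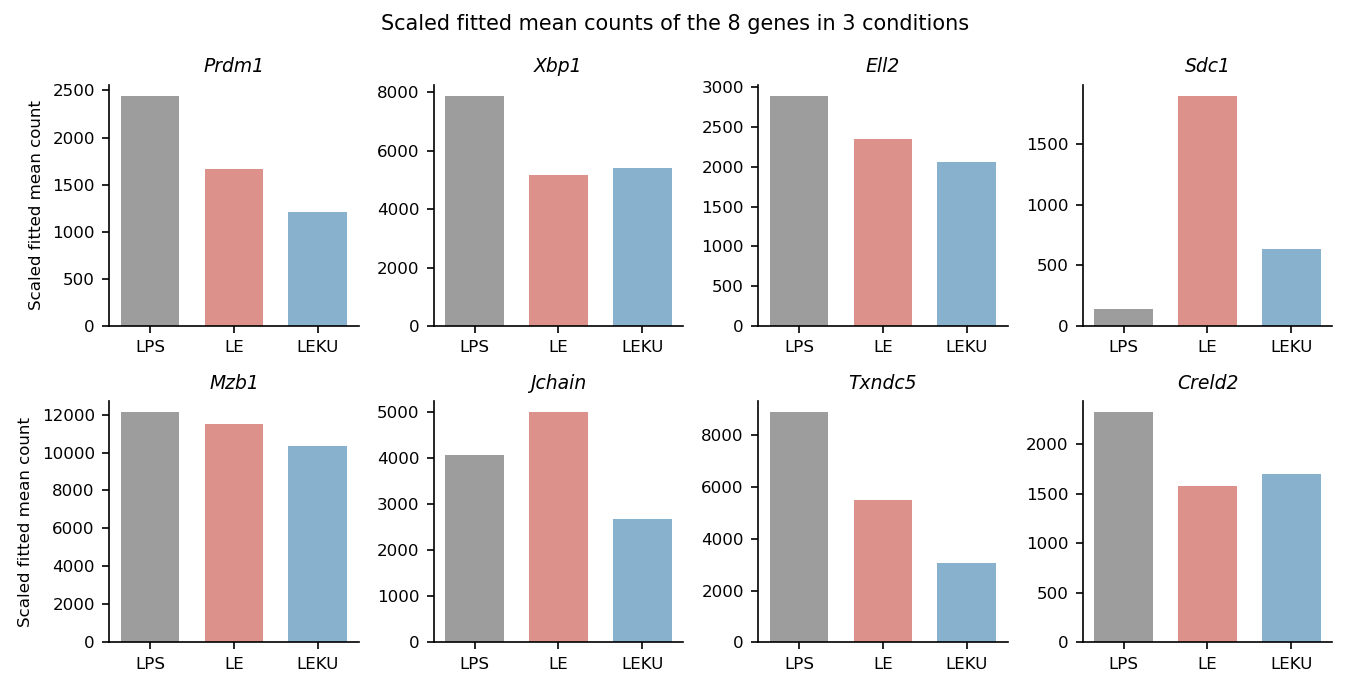
Scaled fitted mean counts (vertical axes, starting at 0, on a separate scale for each gene) of the 8 genes in LPS, LE and LEKU, 1 bar per condition and no error bars because the deposited values hold no spread between replicates. Sdc1 is highest in LE (1901), Jchain is also highest in LE (4987), and the other 6 genes are highest in LPS with this scaling, which for Mzb1 does not hold with column totals, quantile normalization or the authors' mean as the scale.

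The 3 nuclear regulators had lower values in both conditions with etoposide than with LPS alone, by amounts that depended on the scaling. Prdm1 (ENSMUSG00000038151, chromosome 10, 44437177 to 44528501, minus strand) had deposited values of 1930, 2141, 2228 and 2007 in LPS, 1667, 1868, 2263 and 1811 in LE, and 1108, 1249, 1338 and 1360 in LEKU. As for every gene here, columns of 1 condition differ by depth alone, so that their spread says nothing of replicates. Scaled, Prdm1 had 2441 counts in LPS, 1669 in LE (a difference of −31.7%, log2 ratio −0.55) and 1212 in LEKU. The LEKU value differed from LE by −27.4% (log2 ratio −0.46) and was 2.01-fold below LPS (log2 ratio −1.01). It was past the 2-fold limit with TMM factors (−1.04) but not with the authors' mean as the scale (−0.96), quantile normalization (−0.85) or column totals (−0.78). In LE against LPS the log2 ratio was −0.33 with column totals and −0.35 after quantile normalization.

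Xbp1 (ENSMUSG00000020484, chromosome 11, 5520659 to 5525893, plus strand), which acts downstream of Blimp-1 and of ER stress, had 7875 scaled counts in LPS, 5173 in LE and 5396 in LEKU. Its log2 ratio was −0.61 in LE against LPS and 0.06 in LEKU against LE, so that the value with KU55933 lay near that with etoposide alone. In LE against LPS it was −0.39 with column totals and −0.24 after quantile normalization, and in LEKU against LPS it was −0.55 with the main scaling, −0.31 with column totals and −0.13 after quantile normalization. Counts per gene do not separate the spliced Xbp1 mRNA, which encodes the active factor, from the unspliced one. Ell2 (ENSMUSG00000001542, chromosome 13, 75706757 to 75772364, plus strand) had 2888, 2345 and 2053 scaled counts in LPS, LE and LEKU, with log2 ratios of −0.30 in LE against LPS and −0.19 in LEKU against LE. The former was −0.08 with column totals and −0.09 after quantile normalization.

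Of the genes that act on antibody in the ER, Jchain was higher with etoposide and lower with the inhibitor. Jchain (ENSMUSG00000067149, chromosome 5, 88519809 to 88527891, minus strand) had deposited values of 3207, 3558, 3701 and 3335 in LPS, 4982, 5584, 6763 and 5413 in LE, and 2452, 2765, 2963 and 3011 in LEKU. Scaled, it had 4056 counts in LPS, 4987 in LE (22.9% higher, log2 ratio 0.30) and 2683 in LEKU, which differed by −46.2% from LE (log2 ratio −0.89) and by −33.9% from LPS. The log2 ratio in LE against LPS was 0.52 with column totals and 0.58 after quantile normalization, and that in LEKU against LPS went from −0.60 to −0.36 and −0.32.

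Txndc5 (ENSMUSG00000038991, chromosome 13, 38500079 to 38528824, minus strand), a thioredoxin-like protein of the disulfide isomerase family, was lower with etoposide and lower again with KU55933. Its deposited values were 7027, 7796, 8109 and 7307 in LPS, 5517, 6183, 7489 and 5994 in LE, and 2809, 3168, 3394 and 3450 in LEKU. Scaled, it had 8888, 5522 and 3073 counts, which gives log2 ratios of −0.69 in LE against LPS, −0.85 in LEKU against LE and −1.53 in LEKU against LPS, a 2.89-fold difference. The first was −0.47 with column totals and −0.29 after quantile normalization, and the last −1.30 and −1.14, still past 2-fold. Of the 10869 genes with a mean of at least 100, 303 had a lower log2 ratio in LEKU against LE and 229 in LEKU against LPS.

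Creld2 (ENSMUSG00000023272, chromosome 15, 88819646 to 88826683, plus strand), a gene known to respond to ER stress, had 2321 scaled counts in LPS, 1584 in LE and 1698 in LEKU. Its log2 ratios, −0.55 in LE against LPS and 0.10 in LEKU against LE, lay close to those of Xbp1, and the former was −0.33 with column totals and −0.36 after quantile normalization. Mzb1 (ENSMUSG00000024353), a cochaperone that helps assemble IgM in the ER, had 12107 scaled counts in LPS, 11494 in LE and 10317 in LEKU, the smallest range of the 8 genes (0.23 on the log2 scale). Its log2 ratio in LE against LPS was −0.07 with the main scaling, 0.14 with column totals, 0.32 after quantile normalization and 0.01 with the authors' mean as the scale, so that its direction is not set. Exons of Mzb1 share 695 bases with those of a neighbouring gene, SPATA24, on the same strand.

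**Figure D2:**
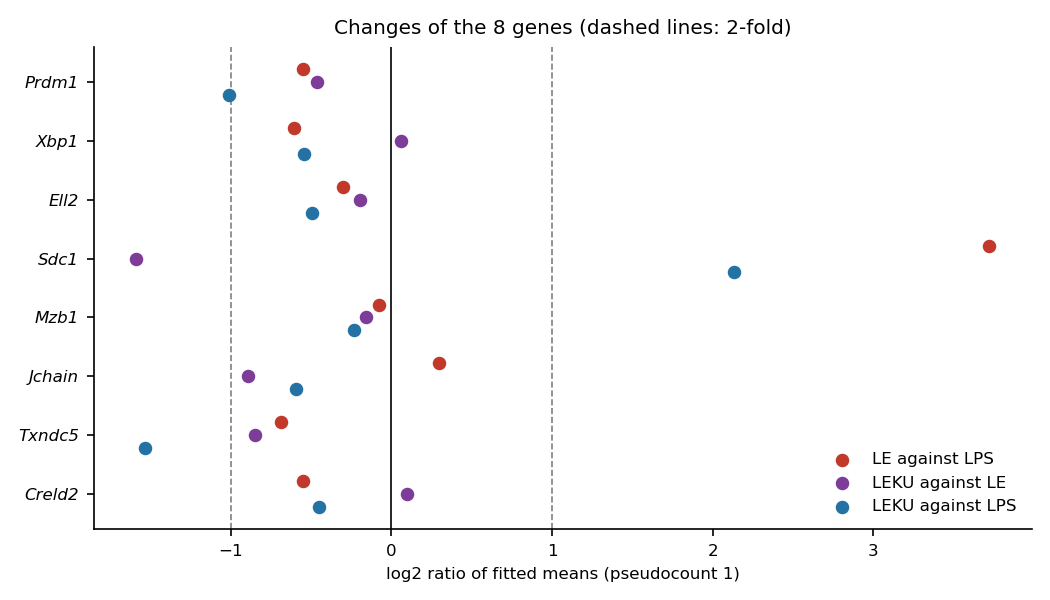
Log2 ratios of scaled fitted means (horizontal axis, pseudocount 1) of the 8 genes in LE against LPS, LEKU against LE and LEKU against LPS, 1 point per comparison, with dashed lines at 2-fold. Sdc1 lies past 2-fold in all 3 comparisons, Txndc5 (−1.53) and Prdm1 (−1.01) in LEKU against LPS, and the other points lie between the lines.

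The count of the 8 genes past 2-fold was read beside the share of all genes. In LE against LPS, 1 of the 8, Sdc1, was at least 2-fold higher, where 13.1% of the 15575 genes were, and 0 were at least 2-fold lower, where 7.44% of genes were. In LEKU against LE, 0 were at least 2-fold higher (1.96% of genes) and 1, again Sdc1, was at least 2-fold lower (4.3% of genes). In LEKU against LPS, Sdc1 was at least 2-fold higher (10.1% of genes) and 2 genes, Txndc5 and Prdm1, were at least 2-fold lower (6.85% of genes). With so few genes and no replicate spread, these shares describe the 8 genes and do not set them apart from the rest. At 1.5-fold, 2 genes were lower in LE against LPS (Xbp1 and Txndc5), where 20.1% of all genes were. In LEKU against LE 3 were lower (Sdc1, Jchain and Txndc5), beside 10.9% of genes, and in LEKU against LPS 3 were lower (Prdm1, Jchain and Txndc5), beside 18%.

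The median log2 ratio of the 8 genes was −0.42 in LE against LPS, −0.33 in LEKU against LE and −0.52 in LEKU against LPS, beside medians over all genes of −0.11, −0.01 and −0.04. Over the 10869 genes with a mean of at least 100, as all 8 have, the medians were −0.18, 0.01 and −0.12. Of the 8, 6 were below 0 in LE against LPS, 6 in LEKU against LE and 7 in LEKU against LPS, where 57.1%, 51.1% and 52.9% of all genes were below 0. Taken relative to the median of all genes, the log2 ratios in LE against LPS were −0.44 for Prdm1, −0.50 for Xbp1, −0.19 for Ell2, −0.58 for Txndc5, −0.44 for Creld2, 0.03 for Mzb1, 0.40 for Jchain and 3.83 for Sdc1.

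**Figure D3:**
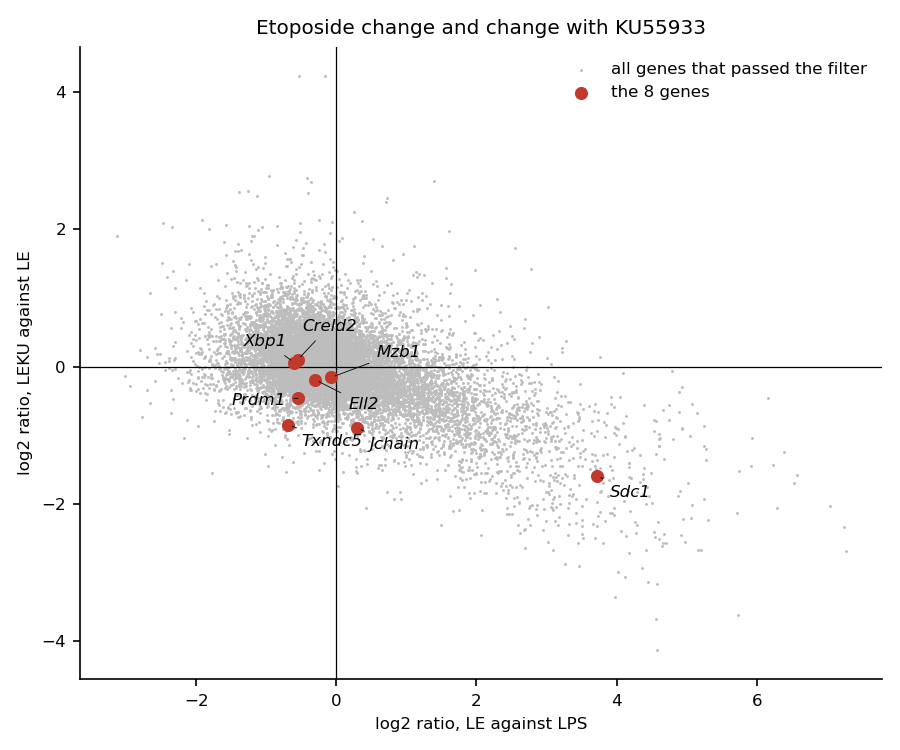
Log2 ratio in LE against LPS (horizontal axis) and in LEKU against LE (vertical axis) for the 15575 genes that passed the filter (grey) and the 8 genes (red), where both axes share the LE libraries. Sdc1 lies at 3.72 and −1.59, Jchain (−0.89) and Txndc5 (−0.85) lie low on the vertical axis, and Xbp1 (0.06) and Creld2 (0.10) lie beside each other above its 0.

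Between genes, levels were compared per length, as scaled counts per 1000 exonic bases and per 1000000 of the condition's total. Division by the total is the scaling by column totals, so that differences between conditions are not those of the main scaling. With LPS alone, Mzb1 had the highest level of the 8 (379.8), above 99.3% of genes, followed by Xbp1 (92.4), Txndc5 (75.4), Creld2 (64.8), Jchain (61.4), Prdm1 (16.7), Ell2 (11.2) and Sdc1 (1.43), which stood at the percentile 30.2. Creld2 and Jchain, neighbours in this order, differed by a factor of 1.05, and whether such a gap exceeds the replicate spread cannot be said. In LE, Sdc1 had a level of 22.1 (percentile 82.5) and stood above Prdm1 (13.3) and Ell2 (10.6), while Jchain (87.9) stood second to Mzb1 (419.6). In LEKU, Sdc1 was last again (7.43, percentile 56.1), Jchain had 47.8, and Txndc5 (30.7) stood in place 5, where it was in place 3 in LPS. Together the 8 genes made up 0.155% of all scaled counts in LPS, 0.154% in LE and 0.121% in LEKU.

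**Figure D4:**
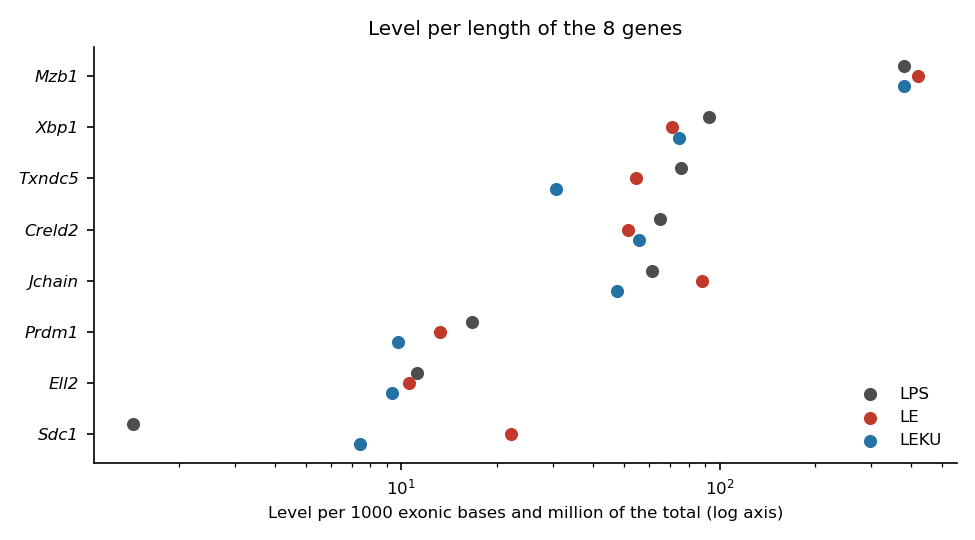
Level of the 8 genes in LPS, LE and LEKU per 1000 exonic bases and per 1000000 of the total (log axis), ordered by the level in LPS, 1 point per condition. Mzb1 is highest in every condition (379.8 to 419.6), and Sdc1 spans the widest range, from 1.43 to 22.1. Between conditions these levels follow column totals, not the main scaling.

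The promoters of 7 of the 8 genes, from 250 bases before to 50 after each RefSeq start (GRCm38.p6), were searched on both strands for elements that the products of Xbp1 and Prdm1, or the ER stress response, are known to bind. The ER stress element (CCAAT, any 9 bases, CCACG) was found in Creld2 alone, where 0.119% of all 32851 promoters in the RefSeq table hold it. TGACGTGG was found at 1 of 3 annotated starts of Txndc5 (0.676% of promoters), where it also holds the shorter GACGTG (6.38% of promoters), and the GAAAGTG core of Blimp-1 sites was found in none of them (4.81% of promoters). The promoters of Creld2 and Txndc5 are shown for these matches, which are in capitals, and that of Sdc1 because the gene differed most between conditions. A match in letters is no evidence of binding. Creld2 and Txndc5, which hold different elements, had log2 ratios of 0.10 and −0.85 in LEKU against LE, and a link to the matches was not tested.

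Creld2, chr15:88819396-88819695, plus strand, ER stress element on the minus strand in capitals: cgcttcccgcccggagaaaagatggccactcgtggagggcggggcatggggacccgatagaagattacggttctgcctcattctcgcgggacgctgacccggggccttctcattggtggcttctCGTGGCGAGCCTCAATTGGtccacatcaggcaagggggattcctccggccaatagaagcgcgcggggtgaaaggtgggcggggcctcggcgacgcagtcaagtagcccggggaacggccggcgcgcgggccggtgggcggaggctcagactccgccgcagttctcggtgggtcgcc

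Txndc5, chr13:38527865-38528164, minus strand, TGACGTGG in capitals: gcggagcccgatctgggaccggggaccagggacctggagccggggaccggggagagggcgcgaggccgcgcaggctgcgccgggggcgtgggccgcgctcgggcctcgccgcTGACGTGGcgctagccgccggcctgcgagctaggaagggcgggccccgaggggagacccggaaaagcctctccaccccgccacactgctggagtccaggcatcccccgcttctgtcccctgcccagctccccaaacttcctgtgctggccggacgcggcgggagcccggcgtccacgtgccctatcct

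Sdc1, chr12:8771146-8771445, plus strand, no match: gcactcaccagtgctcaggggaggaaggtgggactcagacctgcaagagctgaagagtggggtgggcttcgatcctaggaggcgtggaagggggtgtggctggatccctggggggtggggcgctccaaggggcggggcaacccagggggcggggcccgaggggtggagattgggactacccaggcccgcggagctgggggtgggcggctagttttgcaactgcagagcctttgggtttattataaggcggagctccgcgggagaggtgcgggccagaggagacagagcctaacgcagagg

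Other genes of the plasma cell programme, 16 in number, went both ways in LE against LPS. Of the 14 that passed the filter, 1 was at least 2-fold higher (13.1% of all genes) and 4 at least 2-fold lower (7.44% of all genes), with a median log2 ratio of −0.44 beside −0.11 over all genes. With column totals or quantile normalization, 1 was at least 2-fold lower, where 680 and 1363 of all genes were (1159 with the main scaling). Of the 14, 5 had a log2 ratio above 0 in LE against LPS (42.9% of all genes). In LEKU against LE, 10 had one below 0 (51.1% of all genes). Slamf7, a surface receptor of the SLAM family, had 2085 scaled counts in LPS, 5037 in LE and 2458 in LEKU, highest in LE. Cxcr4, the chemokine receptor that draws plasma cells to bone marrow, had 757, 1072 and 1600. At the other end, Pou2af1, a B cell transcriptional coactivator, had 26760, 8962 and 8889, and Sec11c, a subunit of signal peptidase, had 7488, 3332 and 4112. In LEKU against LE, 0 of the 14 were at least 2-fold higher (1.96% of all genes). At least 2-fold lower was 1, Slamf7 (log2 ratio −1.03), beside 4.3% of all genes. In LEKU against LPS, 1 of the 14, Cxcr4, was at least 2-fold higher (10.1% of all genes) and 2 at least 2-fold lower (6.85%). The median was −0.70, beside −0.04 over all genes.

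ER and secretion genes, many of them known targets of Xbp1, had a median below that of all genes in LE against LPS. All 35 passed the filter, and 33 had a log2 ratio below 0 in LE against LPS, beside 57.1% of all genes, with a median of −0.45, beside −0.11. Over genes with a mean of at least 100 the median was −0.18. Of the 35, 3 were at least 2-fold lower (7.44% of all genes) and 0 at least 2-fold higher (13.1% of all genes). These counts depended on the scaling. With column totals 26 of the 35 were below 0 and 0 were at least 2-fold lower. Their median was −0.23, beside 0.11 over all genes, of which 680 were at least 2-fold lower. After quantile normalization the counts were 27 and 0. The median was then −0.18, beside −0.10 over all genes, of which 1363 were at least 2-fold lower. Pdia4, a disulfide isomerase, had 11130 scaled counts in LPS and 4862 in LE, and the chaperone-associated Sdf2l1 had 2562 and 1202. The lectin chaperone Canx (18978 and 20415) and its partner Pdia3 (13564 and 14247) stood at the upper end. In LEKU against LE the median was 0.07, beside −0.01 over all genes. Of the 35, 0 passed 2-fold in either direction, where 1.96% of all genes were higher and 4.3% lower. Xbp1 had 0.06 and Creld2 0.10, at the percentiles 58.0 and 62.4 of all genes that passed the filter. Txndc5 and Mzb1, which also encode ER proteins, had −0.85 and −0.16, at the percentiles 5.98 and 34.5. In LEKU against LPS, 1 of 35 was at least 2-fold lower (6.85% of all genes). The median was −0.39, beside −0.04 over all genes and −0.12 over genes with a mean of at least 100.

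Genes of the B cell programme that are lowered in plasma cells, several of them targets of Blimp-1, were the list with the lowest median in LE against LPS. Of 12 genes, 8 were at least 2-fold lower in LE than in LPS (7.44% of all genes) and 0 at least 2-fold higher (13.1% of all genes), with a median log2 ratio of −1.90, and under each other scaling 8 of the 12 were at least 2-fold lower too. Cd22, an inhibitory coreceptor, had 24930 scaled counts in LPS and 4160 in LE, and Pax5, the transcription factor that maintains B cell identity, had 5732 and 1092. Spib (13178 and 16628), a transcription factor, and Cxcr5 (9492 and 9694), a follicular homing receptor, were not lower. In LEKU against LE, 0 of 12 passed 2-fold in either direction, where 1.96% of all genes were higher and 4.3% lower. The median was 0.04, beside −0.01 over all genes. In LEKU against LPS, 9 of 12 were at least 2-fold lower (6.85% of all genes), with a median of −1.94, beside −0.04 over all genes. Prdm1 mRNA had 2441 scaled counts in LPS and 1669 in LE, with a log2 ratio of −0.55, or −0.33 with column totals. These values do not measure Blimp-1 protein, and the part of Blimp-1 in the values of this list was not tested.

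**Figure D5:**
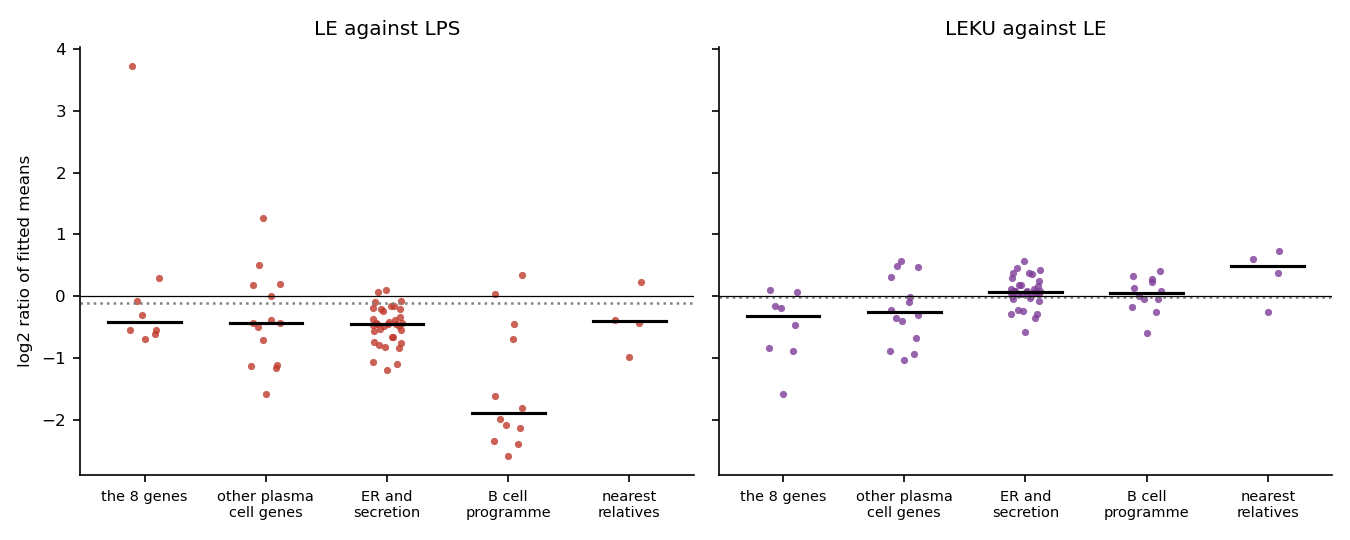
Log2 ratios of scaled fitted means (vertical axis) in LE against LPS (left) and LEKU against LE (right) for the 8 genes and the members of 4 lists that passed the filter, 1 point per gene, with black bars at the medians and a dotted line at the median of all genes. The B cell programme has the lowest median in LE against LPS (−1.90), and the 8 genes the lowest in LEKU against LE (−0.33).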

How the data were processed

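The authors trimmed reads (Trim Galore, cutadapt 1.2.1), mapped them with TopHat2 2.0.12 to GRCm38, counted them per Ensembl gene with HTSeq and fitted them with DESeq2 1.6.3, as the methods and the submitters' processing notes state. In the table of library values that they deposited, each signal is a fitted condition mean brought to that library's depth by a size factor. The 3 deposited comparison tables hold fold changes, standard errors, statistics and p-values, which were not used; the authors' column of mean normalized counts, also a deposited signal, served as an alternative scale.

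Columns were divided by median-of-ratios size factors computed from genes above 0 in all 12 columns. Ratios used log2(scaled count + 1), and genes with at least 10 scaled counts in at least 1 condition were kept. The test planned for values per replicate (limma) could not be run on fitted means and was replaced by values and a 2-fold count. Exonic lengths and gene positions came from GENCODE M21 (GRCm38; 99.5% of the kept genes had a length), promoters from RefSeq. The authors counted on Ensembl release 78, so lengths may differ from the models counted. Strand use in counting is not given in the sources used here, and in GENCODE M21 the exons of Ell2, Mzb1 and Txndc5 share 94 to 695 bases with other genes. Computation used Python 3.11.15, numpy 2.4.6, pandas 2.3.3 and matplotlib 3.10.9, and the functions were tested on simulated data.

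The genes, lists and markers were chosen with earlier results of these data known. Some genes of the lists and markers are not reported here, and counts and sums are over the others. Named are all 8 genes; from each list the 2 highest and 2 lowest log2 ratios in LE against LPS among genes with a mean of at least 100; and the 3 genes nearest in pattern to the 2 of the 8 with the widest range. Alternatives were TMM factors, quantile normalization, column totals, the authors' mean as the scale, pseudocounts of 0.5 and 5, no filter, a minimum of 50, a limit of 1.5-fold and, for length, the longest transcript.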

Additional observations from a re-analysis of the deposited data

How the results depend on the processing

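Of the 24 log2 ratios of the 8 genes, 22 kept their sign under all scalings and pseudocounts. Of the 144 alternative values, 114 lay within 0.1 of the main one. The 30 that moved further all came from column totals or quantile normalization, in LE against LPS or LEKU against LPS. There, only Sdc1 after quantile normalization stayed within 0.1. Pseudocounts, TMM factors and the authors' mean as the scale moved none. The exceptions in sign were Mzb1 in LE against LPS (−0.08 to 0.32) and in LEKU against LPS (−0.26 to 0.21). Of the members at least 2-fold lower in LEKU against LPS, 1 remained in place of 2 with column totals, quantile normalization and the authors' mean as the scale. At 1.5-fold the members lower were 2, 3 and 3 in LE against LPS, LEKU against LE and LEKU against LPS. Over all genes, 1.5-fold gave 3066 higher and 3138 lower, 1225 and 1691, and 2915 and 2804 in the same order. A minimum of 50 left 1248 genes higher in LE against LPS, 1004 higher in LEKU against LPS and 387 lower in LEKU against LE, since fewer genes were compared. Column totals put the median log2 ratio of all genes at 0.11 in LE against LPS (main −0.11) and 0.20 in LEKU against LPS (main −0.04). With column totals 680 were lower in LE against LPS and 621 in LEKU against LPS, and 78.7% and 78.1% of genes past 2-fold were higher, against 63.7% and 59.5%. By the longest transcript, the places of 4, 4 and 2 members in the order per length differed in LPS, LE and LEKU. No paired analysis was possible because the columns are fitted means with no spread between replicates. For the same reason, leaving out a column cannot show how a condition value depends on a single library, and it was not done. Depth per gene is unknown from fitted means, and no interval was given.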

Other observations

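The nearest relatives of Sdc1, Ell2 and Creld2 in their gene families differed less between conditions than Sdc1. The syndecan Sdc3 had 1325 scaled counts in LPS, 669 in LE and 1114 in LEKU, and Sdc4 had 3529, 2625 and 3995, both lowest in LE, where Sdc1 was highest. Ell, a relative of Ell2, had 708, 827 and 694 (log2 ratios of 0.22 in LE against LPS and −0.25 in LEKU against LE). These are the directions of Sdc1, while Ell2 itself had −0.30 and −0.19. Creld1, a relative of Creld2, had 315, 242 and 312. Sdc2 and Ell3 did not pass the filter on low values. Of the 4 that passed, 0 were past 2-fold in any of the 3 comparisons. Of all genes, 13.1%, 1.96% and 10.1% were at least 2-fold higher in LE against LPS, LEKU against LE and LEKU against LPS. At least 2-fold lower were 7.44%, 4.3% and 6.85%. The median log2 ratios of the 4 were −0.40 in LE against LPS, 0.49 in LEKU against LE and −0.02 in LEKU against LPS. Over all genes they were −0.11, −0.01 and −0.04. The last median of the 4 was 0.21 with column totals (0.20 over all genes). With the authors' mean as the scale it was 0.03 (0.01 over all genes).

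Over 10869 genes with a mean of at least 100, likeness to a gene was measured as the Euclidean distance in the log2 ratios of LE against LPS and LEKU against LE, which share the LE libraries. The genes nearest to Sdc1 were Gm26656 (distance 0.085), a long noncoding RNA gene, Plod2 (0.14), which encodes a collagen lysyl hydroxylase, and Dmpk (0.26), which encodes a protein kinase. Gm26656 had 58.8 scaled counts in LPS, 836 in LE and 275 in LEKU, and Plod2 had 119 in LPS, 1667 in LE and 513 in LEKU. Within a distance of 0.2 lay 2 genes for Sdc1 and 18 for Txndc5. The genes nearest to Txndc5 were Ncf4 (0.0093), which encodes a subunit of the phagocyte oxidase, 2810417H13Rik (0.049) and Gm14150 (0.051), annotated as a processed pseudogene, whose reads may be shared with its parent gene. The 3 conditions give 2 independent log2 ratios, so that nearness on this measure says little.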
